A study of Mus musculus with 8 samples.

Results

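The genes described here are the 3 D cyclins (Ccnd1, Ccnd2 and Ccnd3) and the 7 inhibitors of cyclin-dependent kinases of the Cdkn1 and Cdkn2 families (Cdkn1a, Cdkn1b, Cdkn1c, Cdkn2a, Cdkn2b, Cdkn2c and Cdkn2d). They were taken by symbol, and all 10 were found among the 32531 gene symbols of the count table. RNA of isolated pancreatic islets was sequenced from 4 control mice, with the genotype RIP-Cre+, Rosa26-rtTA+, tetO_NICD-, and from 4 β-tetO-NICD mice, hereafter transgenic, with the genotype RIP-Cre+, Rosa26-rtTA+, tetO_NICD+. Mice of both groups were of a mixed C57BL/6J, 129X1/SvJ and BALB/c background and had drunk doxycycline (Dox) for 8 weeks, so the controls shared Cre, the reverse tetracycline activator and Dox and lacked the tetO transgene. RIP-Cre is an Ins2-cre transgene, which directs the active, intracellular part of Notch1 (NICD) to β cells, whereas the RNA came from whole islets. The study started Dox at weaning in one schedule and later in another, and the age of the sequenced mice is not stated beside these libraries. The comparison asks whether levels of these cell cycle genes differed in islets whose β cells had sustained Notch activity.

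D cyclins bind Cdk4 and Cdk6 and start the phosphorylation of the retinoblastoma protein, which releases E2F factors and lets a cell pass from G1 into S phase. Ccnd2 is the D cyclin best known for postnatal growth of β cell mass in mice. The Cdkn1 genes encode the Cip/Kip inhibitors p21 (Cdkn1a), p27 (Cdkn1b) and p57 (Cdkn1c), which bind several cyclin-kinase pairs. The Cdkn2 genes encode the INK4 inhibitors p16 (Cdkn2a), p15 (Cdkn2b), p18 (Cdkn2c) and p19Ink4d (Cdkn2d), which bind Cdk4 and Cdk6 themselves. Cdkn2a also encodes p19Arf, which acts on Mdm2 and p53, and its counts join both products.

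None of the 10 genes passed the test between the groups, in which 6.76% of all genes tested passed. The differences that came nearest were higher means of Cdkn2c, Cdkn1c and Ccnd3 in β-tetO-NICD islets, by 1.42-fold, 1.68-fold and 1.26-fold. Ccnd2, the most abundant of the 10, had a mean 0.81-fold that of controls, and the groups overlapped for every member. Among genes that act with them, E2f1 fell to 0.379-fold.

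Windows of the 250 bases before an annotated start were taken from a set of RefSeq starts on GRCm38.p6, which held 11 windows for 7 of the 10 members. Ccnd1, Ccnd2 and Cdkn1c had no entry in the set used. The windows were searched on both strands for the core of the site bound by RBPJ, the DNA-binding partner of NICD (TGGGAA), for the N-box bound by Hes repressors (CACNAG), for E2F sites (TTTCCCGC, TTTCGCGC, TTTGCCGC or TTTGGCGC) and for the p53 half-site. Of 32851 such windows of all genes, 21.6% held the RBPJ core, 36.7% an N-box, 1.86% an E2F site and 7.13% a p53 half-site. The 5 windows that follow show the starts of genes with more than one product or with a match among the inhibitors. Capitals mark RBPJ core, E2F and p53 half-site matches, written 5′ to 3′ on the strand of the gene.
Cdkn1a upstream start, chr17:29090729-29090978, plus strand: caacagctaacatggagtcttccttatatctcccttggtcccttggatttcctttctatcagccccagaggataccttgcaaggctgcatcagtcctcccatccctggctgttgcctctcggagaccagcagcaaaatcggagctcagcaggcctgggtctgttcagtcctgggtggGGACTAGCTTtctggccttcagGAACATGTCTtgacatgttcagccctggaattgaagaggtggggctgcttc
Cdkn1a downstream start, chr17:29093519-29093768, plus strand: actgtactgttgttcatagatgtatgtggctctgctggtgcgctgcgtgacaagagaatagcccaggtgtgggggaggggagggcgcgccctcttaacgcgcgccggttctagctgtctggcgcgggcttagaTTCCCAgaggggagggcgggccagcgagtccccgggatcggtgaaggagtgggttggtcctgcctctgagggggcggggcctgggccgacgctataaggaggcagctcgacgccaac
Cdkn2a p19Arf start, chr4:89294620-89294869, minus strand: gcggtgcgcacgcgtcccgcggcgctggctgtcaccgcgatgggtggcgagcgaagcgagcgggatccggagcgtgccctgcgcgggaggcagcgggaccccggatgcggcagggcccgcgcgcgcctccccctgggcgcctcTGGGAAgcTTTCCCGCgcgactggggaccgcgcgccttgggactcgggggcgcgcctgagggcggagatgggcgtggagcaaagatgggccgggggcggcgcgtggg
Cdkn2a p16 start, chr4:89282193-89282442, minus strand: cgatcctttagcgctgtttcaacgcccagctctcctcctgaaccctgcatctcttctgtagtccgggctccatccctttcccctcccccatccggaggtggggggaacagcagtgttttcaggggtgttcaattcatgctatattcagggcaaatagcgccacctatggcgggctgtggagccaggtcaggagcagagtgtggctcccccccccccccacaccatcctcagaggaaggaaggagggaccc
Cdkn2d, chr9:21291210-21291459, minus strand: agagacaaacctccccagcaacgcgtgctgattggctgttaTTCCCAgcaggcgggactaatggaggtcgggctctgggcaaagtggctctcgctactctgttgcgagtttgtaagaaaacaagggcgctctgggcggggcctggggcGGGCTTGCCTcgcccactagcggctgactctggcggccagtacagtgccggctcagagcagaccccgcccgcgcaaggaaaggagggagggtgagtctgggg
The upstream Cdkn1a window held 2 p53 half-sites, and the downstream one held 1 RBPJ core in reverse orientation and 1 N-box. The p19Arf window held 1 RBPJ core followed by 1 E2F site, and the p16 window of the same gene held no match. The Cdkn2d window held 1 RBPJ core, 1 N-box and 1 p53 half-site. Of the windows not shown, 1 of Ccnd3 held 1 N-box and the others held no match. A match describes the letters of the window and not a bound site, and binding was not measured.

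The libraries differed in ways that bear on these genes. Total counts ranged from 22430941 to 25950164 in controls and from 21701223 to 26413146 in transgenic islets, and 3 counts, taken as the floor, were at most 0.138 and 0.151 CPM (counts scaled to library size by the TMM method), which covers counting error only. Notch1, whose intracellular domain the transgene encodes, was at 41.6 to 65.0 CPM in controls and 573.7 to 1321.5 CPM in transgenic libraries, and its target Hes1 was at 6.01 to 8.51 and 31.6 to 55.8 CPM, as the labels say. Across tested genes, the rank correlation (Spearman's rho) of transcript length with each library's departure from the mean of all libraries was positive for controls 1, 2 and 4 (0.418 to 0.497) and transgenic library 1 (0.446). Negative values were found for control 3 (-0.174) and transgenic libraries 2, 4 and 5 (-0.521 to -0.360), so length sets control 3 and transgenic library 1 apart from the rest of their groups. Eif2s3y, which is Y-linked, was counted 1300 and 1527 times in controls 2 and 4, 1465 times in transgenic library 5 and no more than 1 time in the other 5 libraries, although the study's methods give male islets for expression work. The β-tetO-NICD columns are numbered 1, 2, 4 and 5 and the mice 1 to 4, so libraries 4 and 5 belong to the group but to no particular mouse.

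The 15082 genes that reached 10 counts in 4 or more libraries were tested by edgeR's quasi-likelihood method with Benjamini-Hochberg adjustment over all of them, with 0.05 as the threshold. All 10 members passed the filter, Cdkn2a only through control 2 and transgenic libraries 2, 4 and 5. The number past the threshold was 0 of 10, against 1020 genes or 6.76% of all tested. DESeq2 and limma-voom also gave 0 members, where they called 18.2% and 7.18% of all genes tested. At an unadjusted p under 0.05 stood 3 members (Cdkn2c, Cdkn1c and Ccnd3), where 31.6% of all tested genes did. Of the members, 9 had a positive log2 fold change and 1, Ccnd2, a negative one, where 50% of all tested genes were positive. Over all genes 4.19% passed as higher and 2.57% as lower, beside 0 members in each direction. The median log2 fold change was 0.39 over the members and 0.0007 over all genes tested. For 0 of 10 members were the groups separate, which 16.1% of all tested genes were.

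**Figure D1:**
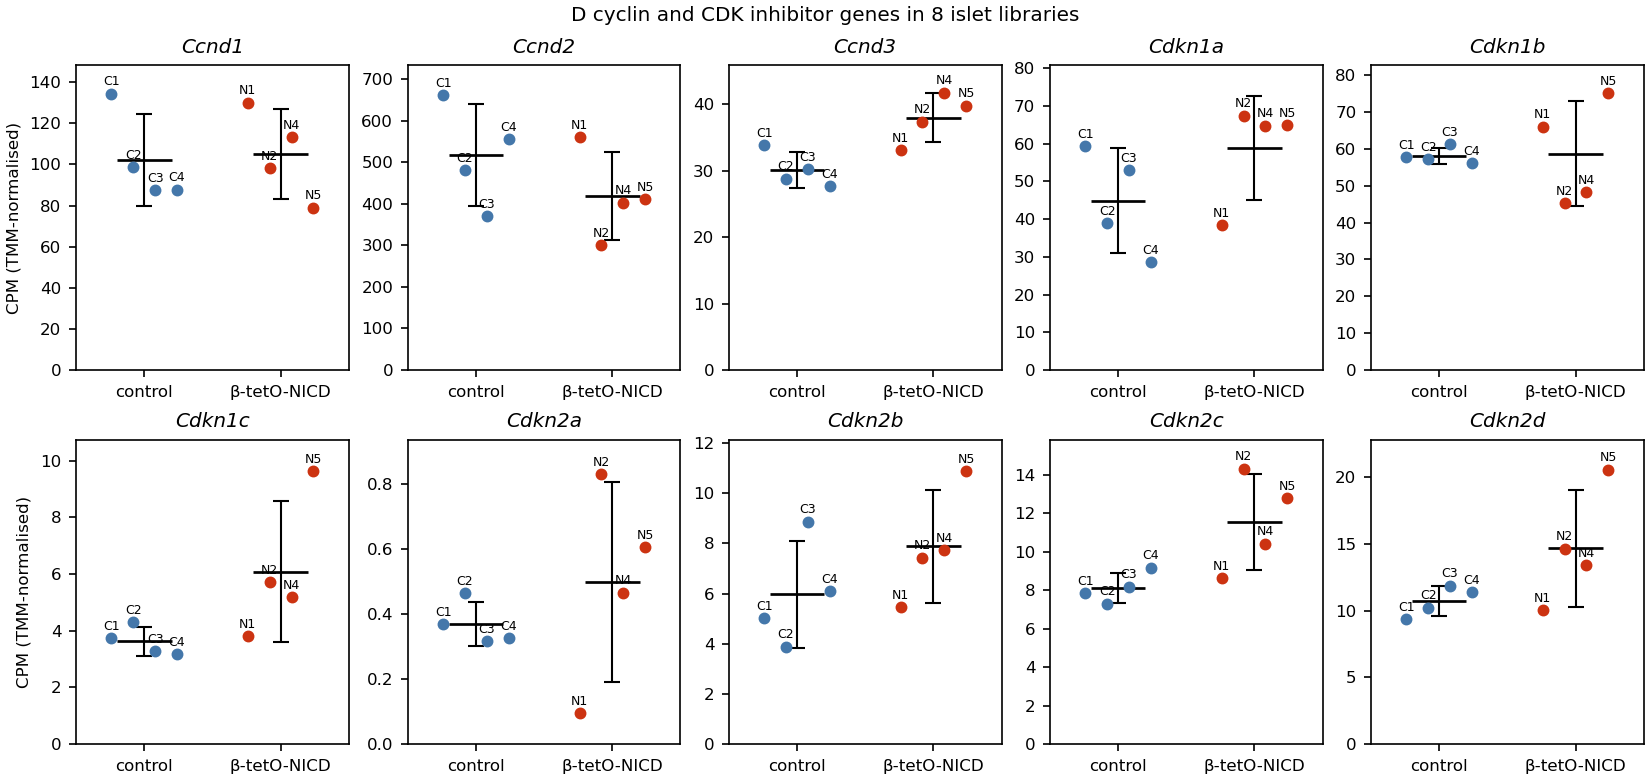
CPM of each gene in each library on a linear axis from 0, for controls (C1 to C4) and β-tetO-NICD islets (N1, N2, N4 and N5). Horizontal lines are means and bars are SD (n = 4), and the groups overlap in all 10 panels.

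Among the D cyclins, Ccnd1 (chromosome 7, 144929931 to 144939925, GENCODE M21 on GRCm38) was at 134.5, 98.7, 87.6 and 87.8 CPM in controls 1 to 4. In transgenic libraries 1, 2, 4 and 5 it was at 130.0, 98.3, 113.3 and 78.9 CPM. Library 1 of each group was the highest, and the groups covered nearly the same range. On the log2 scale the fold change was 0.04 (standard error 0.20, 95% interval -0.41 to 0.49, edgeR adjusted p = 0.898).

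Ccnd2 (chromosome 6, 127125162 to 127152193) was at 660.8, 480.2, 370.4 and 555.2 CPM in controls. Levels in transgenic islets were 559.8, 300.9, 402.8 and 410.7 CPM. Again library 1 of each group was the highest, and control 3 lay below 3 of the transgenic libraries. The mean ± SD (n = 4) was 517 ± 122 CPM beside 419 ± 107 CPM, and the fold change on the log2 scale was -0.30 (standard error 0.24, 95% interval -0.84 to 0.23, edgeR adjusted p = 0.384). Its longest transcript, of 6330 bases, is the longest of the 10 genes, and the length trend of the libraries alone, fitted over all genes, ran to -0.35 at that length. With the trend as an offset the log2 fold change of Ccnd2 was 0.04, so its sign depends on the treatment of length.

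Ccnd3 (chromosome 17, 47505051 to 47599691) was at 33.9, 28.8, 30.2 and 27.6 CPM in controls. The transgenic libraries 1, 2, 4 and 5 held 33.1, 37.4, 41.8 and 39.8 CPM. Libraries 2, 4 and 5 of the transgenic group lay above all controls, and library 1 lay just below control 1. Its log2 fold change was 0.33 (standard error 0.13, 95% interval 0.04 to 0.63, unadjusted p = 0.0317, edgeR adjusted p = 0.130). Its longest transcript, of 3858 bases, is a retained intron, and its longest protein-coding transcript has 2113 bases. The offset for length gave 0.42 (adjusted p = 0.0666) with the longest transcript and 0.16 (adjusted p = 0.361) with the longest protein-coding one, and the second definition was added after the results of the first were known.

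Of the Cip/Kip genes, Cdkn1a (chromosome 17, 29090976 to 29100727), a target of p53, was at 59.4, 38.9, 52.9 and 28.5 CPM in controls. Transgenic islets had 38.3, 67.4, 64.7 and 65.0 CPM. Libraries 2, 4 and 5 exceeded every control, and library 1 lay below 3 of the 4. The fitted log2 fold change was 0.39 (standard error 0.26, 95% interval -0.18 to 0.96, edgeR adjusted p = 0.302).

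Cdkn1b (chromosome 6, 134920401 to 134925513) was at 57.7, 57.3, 61.3 and 56.1 CPM in controls. Transgenic libraries had 66.1, 45.3, 48.3 and 75.1 CPM. Controls lay within a narrow band, and the β-tetO-NICD libraries fell on both sides of it, with a mean ± SD (n = 4) of 58.7 ± 14.3 CPM beside 58.1 ± 2.26 CPM. The log2 fold change was 0.01 (standard error 0.18, 95% interval -0.38 to 0.41, edgeR adjusted p = 0.963).

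Cdkn1c (chromosome 7, 143458339 to 143461050), an imprinted gene expressed from the maternal allele, was at 3.74, 4.31, 3.28 and 3.17 CPM in controls. Levels in transgenic islets were 3.80, 5.72, 5.18 and 9.62 CPM. Library 5 was the highest, and library 1 lay among the controls. On the log2 scale the fold change was 0.74 (standard error 0.29, 95% interval 0.09 to 1.40, unadjusted p = 0.0290, edgeR adjusted p = 0.126), the largest of the 10, and 0.44 without library 5.

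Among the INK4 genes, Cdkn2a (chromosome 4, 89274471 to 89294653) was near the floor, with 8, 11, 8 and 8 counts in controls. The β-tetO-NICD libraries had 2, 19, 14 and 12 counts. Library 1 was the lowest of all and libraries 2, 4 and 5 were above or level with the controls, at 0.830, 0.465 and 0.605 CPM beside a highest control of 0.464 CPM. The log2 fold change of 0.43 had a standard error of 0.53 and a 95% interval from -0.75 to 1.63 (edgeR adjusted p = 0.578). Few counts and the spread between transgenic libraries both stand behind that interval, and their parts were not separated. Without transgenic library 1 the value was 0.77 (adjusted p = 0.142).

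Cdkn2b (chromosome 4, 89306299 to 89311039), the neighbour of Cdkn2a, was at 5.03, 3.88, 8.86 and 6.09 CPM in controls. The transgenic libraries 1, 2, 4 and 5 held 5.46, 7.42, 7.74 and 10.9 CPM. Control 3 exceeded 3 of the transgenic libraries. Its log2 fold change was 0.40 (standard error 0.29, 95% interval -0.26 to 1.06, edgeR adjusted p = 0.357).

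Cdkn2c (chromosome 4, 109660876 to 109667189) was at 7.84, 7.31, 8.19 and 9.17 CPM in controls. Transgenic islets had 8.65, 14.3, 10.4 and 12.8 CPM. Only library 1 overlapped the controls. The fitted log2 fold change was 0.51 (standard error 0.19, 95% interval 0.08 to 0.94, unadjusted p = 0.0259, edgeR adjusted p = 0.120), the lowest p of the 10 and number 3245 in the order of p among the 15082 genes.

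Cdkn2d (chromosome 9, 21288410 to 21291407) was at 9.36, 10.2, 11.9 and 11.4 CPM in controls. Transgenic libraries had 10.03, 14.6, 13.4 and 20.6 CPM. As for Cdkn2c, only library 1 lay within the control range. The log2 fold change was 0.45 (standard error 0.22, 95% interval -0.04 to 0.94, edgeR adjusted p = 0.184).

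Transgenic library 1 thus lay within or below the control range for all 7 inhibitors except Cdkn1b. Without it, 4 of the 10 members passed, where 33.2% of all genes tested did. Ccnd3 (0.40, adjusted p = 0.0433), Cdkn1c (0.92, adjusted p = 0.0284), Cdkn2c (0.62, adjusted p = 0.0265) and Cdkn2d (0.60, adjusted p = 0.0388) were then higher on the log2 scale by edgeR's test. Without control 3 as well, 6 passed, where 39.5% of all genes did, and Ccnd2 (-0.60, adjusted p = 0.0406) and Cdkn2b (0.80, adjusted p = 0.0382) were added. The 4 of 10 members is close to the share of all genes in that fit, and leaving out both libraries was chosen after the length trend had been seen. Without transgenic library 5 the values went the other way, to 0.44 for Cdkn1c, 0.25 for Cdkn2d and 0.21 for Cdkn2b, and 0 members passed, where 4.05% of all genes did. Cdkn1a was at 0.23 without control 4, and Cdkn2b at 0.25 without control 2 and 0.66 without control 3. Ccnd2 was at -0.15 without control 1, -0.17 without transgenic library 2 and -0.47 without transgenic library 1, and passed in none of these fits.

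**Figure D2:**
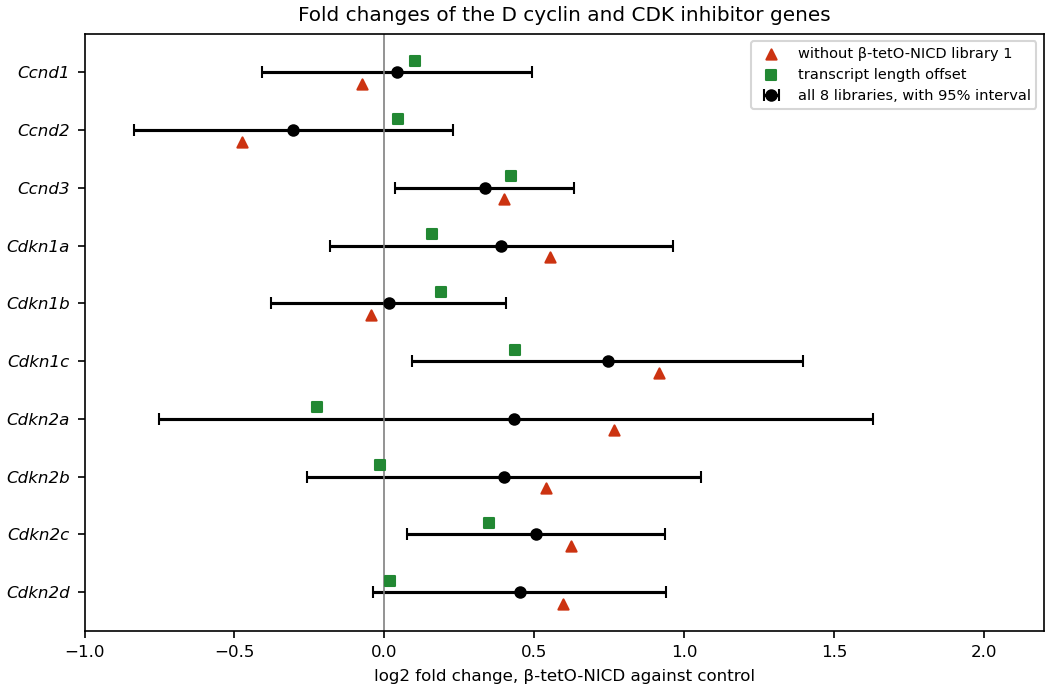
Log2 fold change of each gene, with black points for all 8 libraries and bars for the 95% interval, red triangles for the fit without transgenic library 1 and green squares for the fit with an offset for the longest transcript. For Cdkn2b and Cdkn2d the square lies near 0, whereas for Cdkn2c it lies at 0.35, below the black point at 0.51.

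Transcript length moved with the fold changes. In 10 equal groups of all tested genes by length, the median log2 fold change went from 0.59 at a median length of 955 bases to -0.48 at 8371.5 bases. The inhibitors are mostly short, from 895 bases for Cdkn2a to 2471 bases for Cdkn2c, with Cdkn1b at 4552 bases. At their lengths the trend alone gave 0.56 for Cdkn2a, 0.40 for Cdkn2b, 0.39 for Cdkn2d, 0.26 for Cdkn1c, 0.22 for Cdkn1a and 0.14 for Cdkn2c. With the offset no member passed, where 10.3% of all genes did. The log2 fold changes of Cdkn2b (-0.01) and Cdkn2d (0.02) were then near 0 and that of Cdkn2a was -0.22, while Cdkn1c (0.44, adjusted p = 0.243) and Cdkn2c (0.35, adjusted p = 0.176) kept positive values. Cdkn1a was at 0.16 with the offset, and at 0.024 in the 5 libraries with at most 1 Eif2s3y count. With the offset and without transgenic library 1, Ccnd3 alone passed (0.51, adjusted p = 0.0187), where 20.9% of all genes did, and with protein-coding lengths it did not (0.16, adjusted p = 0.387). The call of Ccnd3 therefore depends on which transcript gives its length. The genotype and the length trend cannot be told apart in most libraries, since 3 of 4 controls share one direction and 3 of 4 β-tetO-NICD libraries the other.

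**Figure D3:**
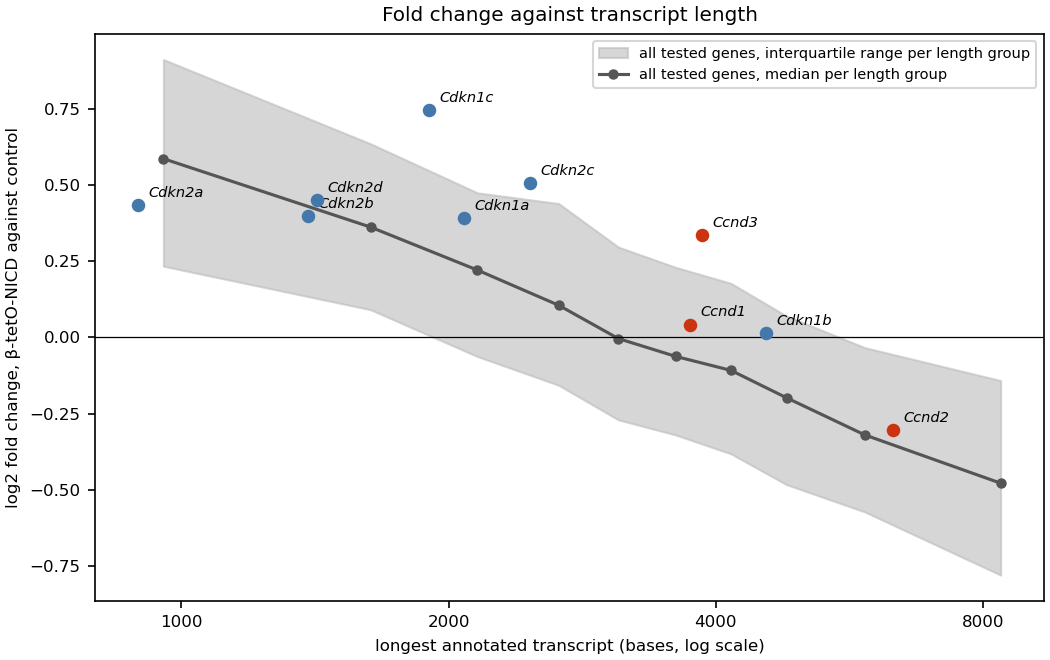
Log2 fold change against the longest annotated transcript in bases (log axis), with the D cyclins in red and the inhibitors in blue. The grey line is the median of all tested genes in each of 10 groups by length and the band its interquartile range, and the line falls from 0.59 to -0.48.

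Levels were compared between genes as CPM per kb of the longest protein-coding transcript. In controls the order was Ccnd2 (81.6 ± 19.3, SD, n = 4), Ccnd1 (27.3 ± 5.93), Cdkn1a (21.6 ± 6.68), Ccnd3 (14.3 ± 1.29), Cdkn1b (12.8 ± 0.497), Cdkn2d (7.52 ± 0.794), Cdkn2b (4.29 ± 1.53), Cdkn2c (3.29 ± 0.318), Cdkn1c (1.91 ± 0.272) and Cdkn2a (0.412 ± 0.0759). The ranges of Ccnd1 and Cdkn1a, of Cdkn1a and Ccnd3, of Ccnd3 and Cdkn1b and of Cdkn2b and Cdkn2c overlapped. The other neighbours in that order did not. In transgenic islets Cdkn1a (28.3 ± 6.61) and Ccnd1 (28.1 ± 5.81) changed places with overlapping ranges, and the rest of the order was the same. There the ranges of Ccnd3 and Cdkn1b, Cdkn1b and Cdkn2d, Cdkn2d and Cdkn2b, Cdkn2b and Cdkn2c, and Cdkn2c and Cdkn1c also overlapped. Per kb of its retained-intron transcript, Ccnd3 was at 7.81 ± 0.705 in controls, below Cdkn1b.

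The 3 D cyclins summed to 123 ± 25.1 CPM per kb (mean ± SD, n = 4) in control islets and 112 ± 19.96 in transgenic ones. Of that sum Ccnd2 held 65.9% ± 4.04 and 58.4% ± 5.41. The Cdkn1 genes summed to 36.3 ± 7.02 and 44.4 ± 7.32, and the Cdkn2 genes to 15.5 ± 2.34 and 21.2 ± 5.64. Inhibitors per D cyclin were at 0.364, 0.406, 0.613 and 0.355 in controls and at 0.357, 0.740, 0.564 and 0.772 in transgenic islets. Division by length does not remove the length trend of each library, and no offset for it was applied to these sums and ratios. Control 3 and transgenic library 1 again lay on the side of the other group, and all of these sums and ratios overlapped between the groups.

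**Figure D4:**
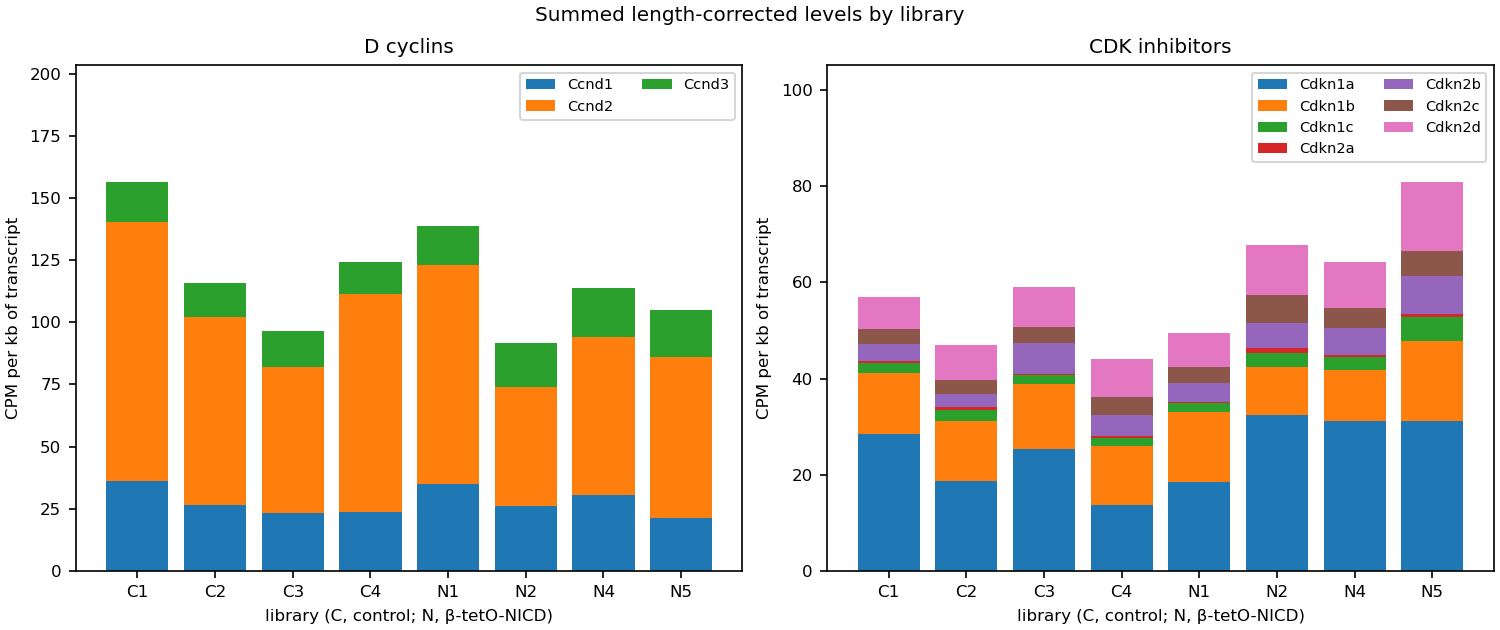
Stacked levels of the D cyclins (left) and the inhibitors (right) in each library, in CPM per kb of the longest protein-coding transcript, on axes from 0. Ccnd2 is the largest block of every left bar, and the highest inhibitor bar is that of β-tetO-NICD library 5.

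Of the marker sums, those of α cells, macrophages and lymphocytes did not overlap between the groups, and the others did. The sum of 7 α cell markers was 12137 to 43263 CPM in controls and 55923 to 70982 CPM in transgenic islets. Of these markers 4 of 7 passed as higher, beside 4.19% of all genes. The sum of 10 β cell markers was 157175 to 197769 and 72403 to 172163 CPM, with overlap. Of these markers 3 of 10 passed as lower, beside 2.57% of all genes. Sums of 8 macrophage markers (144 to 188 and 219 to 309 CPM) and 8 lymphocyte markers (18.1 to 28.3 and 30.3 to 38.7 CPM) did not overlap. Of their tested markers 2 of 8 and 1 of 5 passed as higher, beside the same 4.19% of all genes. C1qa, a complement subunit, made up most of the macrophage difference (77.6 and 150.4 CPM on average), while Adgre1 (-0.38, adjusted p = 0.270) and Itgam (-1.15, adjusted p = 0.140) had negative log2 fold changes. Cd79a was the most abundant lymphocyte marker (15.8 and 22.02 CPM) and did not pass (adjusted p = 0.163). Sums of 12 acinar markers (42602 to 84867 and 35779 to 128300 CPM) and of 4 δ cell markers (2439 to 6588 and 5087 to 14146 CPM) overlapped. Of the δ cell markers 1 passed as higher, Hhex (1.01, adjusted p = 0.0436). Sums of pancreatic polypeptide cell, duct, endothelial, stellate and fibroblast, Schwann and neural, and erythroid markers overlapped too. Of these lists and the acinar one 0 markers passed, where 6.76% of all genes did. No marker was at 0 in every library. Endocrine markers of β, α and δ cells were thus present in every library, as the tissue label says, together with exocrine RNA. Fewer cells of a type and less RNA per cell cannot be told apart in these bulk samples. From staining, the paper reports that the ratio of β to α cells did not change after the same time on Dox. It also reports no change in islet macrophages or endothelial cells. Controls for that ratio lacked Cre, whereas those sequenced here carried it. The part of cell composition in the values of the D cyclins and inhibitors was not tested.

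The genes around the members were described by lists chosen with earlier results of these data known. Among 15 tested G1 kinases and cyclin partners 0 passed and the median log2 fold change was -0.03. At an unadjusted p under 0.05 stood 5, near the 31.6% of all genes, and DESeq2 called 2, the E cyclins, where it called 18.2% of all genes. Cdk4, the kinase partner of D cyclins, was at 0.14 on the log2 scale (adjusted p = 0.610). The E cyclins Ccne1 (-0.67, adjusted p = 0.0945) and Ccne2 (-0.89, adjusted p = 0.0748), which follow D cyclins in late G1, did not pass. Ccne1 passed as lower with the length offset under both definitions of length, where 10.3% and 10.5% of all genes passed. Ccne2 passed as lower without transgenic library 1, where 33.2% did.

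Of 12 tested genes of the Rb and E2F axis, 1 rose and 1 fell, or 16.7% beside 6.76% of all genes, with a median of -0.28. E2f1, an activating E2F, was at 15.9, 15.7, 15.2 and 14.4 CPM in controls and at 4.51, 4.85, 6.41 and 7.41 CPM in transgenic islets. The controls lay close together, the transgenic libraries were more spread, and the groups did not overlap. On the log2 scale the fold change was -1.40 (standard error 0.19, edgeR adjusted p = 0.00323), and it stayed between -1.53 and -1.30 and past the threshold in all 8 fits that left out 1 library. E2f3, another activating E2F, rose by 0.90 (adjusted p = 0.0470), and that call held in 2 of the same 8 fits. Rb1 was at -0.49 (adjusted p = 0.137).

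Of 26 tested genes of S phase and mitosis 0 passed, with 5 at an unadjusted p under 0.05, a median of 0.25 and 0 by DESeq2. Of all genes 6.76% passed, 31.6% had an unadjusted p under 0.05 and DESeq2 called 18.2%. Those 5 were all higher on the log2 scale, namely Gins2 (2.03), Cdk1 (0.94), Ube2c (0.76), Cdt1 (0.73) and Ccnb2 (0.70). Of the 26, 19 had a positive log2 fold change and 7 a negative one, where 50% of all tested genes were positive. For 3 of the 26 the groups did not overlap, where 16.1% of all genes were separate. Mki67, a marker of cycling cells, was at -0.07 on the log2 scale (standard error 0.38, adjusted p = 0.911). Of 17 tested genes of the turnover of these proteins 0 passed, with 3 at an unadjusted p under 0.05, a median of -0.12 and 1, Cul4b, by DESeq2, beside the same shares of all genes. Skp2, which marks p27 for degradation, was at -0.50 (adjusted p = 0.372).

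Of 24 tested genes of the p53 pathway, 1 rose (4.17%, as did 4.19% of all genes) and the median was 0.19. This gene was Phlda3, a p53 target that restrains Akt, at 4.66, 7.09, 6.85 and 4.14 CPM in controls and 8.98, 19.9, 15.8 and 21.01 CPM in transgenic islets (log2 fold change 1.53, standard error 0.29, edgeR adjusted p = 0.0165). It kept the call in 4 of the 8 fits that left out 1 library. Trp53 itself was at 0.35 (adjusted p = 0.158).

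Of 11 tested genes of the imprinted domain around Cdkn1c and the adjoining Ins2 and Igf2 region, 1 rose and 3 fell (36.4%, beside 6.76% of all genes), with a median of -0.05. Cd81, a tetraspanin, rose by 1.14 (adjusted p = 0.00557). Th, the enzyme of catecholamine synthesis, fell by 1.48 (adjusted p = 0.000681). On the same scale Trpm5, a cation channel, fell by 2.10 (adjusted p = 0.00524) and Osbpl5, a lipid-binding protein, fell by 0.94 (adjusted p = 0.0369). Cd81, Th and Trpm5 passed in all 8 fits without 1 library and Osbpl5 in 3 of them, and Osbpl5 did not pass with the Eif2s3y covariate (adjusted p = 0.0542). The 5 libraries with at most 1 Eif2s3y count were controls 1 and 3 and transgenic libraries 1, 2 and 4, and 0.719% of all genes passed in them. Th and Trpm5 passed there, whereas Cd81 (adjusted p = 0.156) and Osbpl5 (adjusted p = 0.269) did not. The lowest log2 fold change of Cd81 in that fit and the other alternatives that did not leave out a single library was 0.79. Neighbours of Cdkn1c thus went in both directions.

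Of 20 tested neighbours and regulators of Cdkn2a, 3 rose and 1 fell (20%, beside 6.76% of all genes), with a median of -0.09. The 3 that rose were Id1 (1.14, adjusted p = 0.0458), Id2 (1.86, adjusted p = 0.00159) and Id3 (0.84, adjusted p = 0.0417), which encode inhibitors of helix-loop-helix factors. Id2 passed in all 8 fits without 1 library and Id1 and Id3 in 1 each. With the length offset Id1 (0.61, adjusted p = 0.0966) and Id3 (0.39, adjusted p = 0.154) did not pass. Rnf2, a Polycomb ubiquitin ligase, fell by 0.47 (adjusted p = 0.0478) and passed in 1 of the 8 fits.

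Of 29 tested upstream regulators, 2 rose (6.90%, near the 6.76% of all genes) and the median was -0.21. Tgfb1, a growth factor known to induce Cdkn2b, was at 8.90, 7.47, 7.48 and 6.37 CPM in controls and 16.2, 31.7, 26.3 and 33.6 CPM in transgenic islets (log2 fold change 1.83, standard error 0.24, edgeR adjusted p = 0.00260). Its effector Smad3 rose by 1.28 (adjusted p = 0.0117). Both passed in all 8 fits without 1 library. In the 5 libraries with at most 1 Eif2s3y count, where 0.719% of all genes passed, E2f1 passed (adjusted p = 0.0499). There Id2 (adjusted p = 0.0840), Tgfb1 (adjusted p = 0.101) and Smad3 (adjusted p = 0.0574) did not pass. Across that fit and the other alternatives that did not leave out a single library, their lowest log2 fold changes were 1.59, 1.60 and 1.13. Prlr, the prolactin receptor (-0.95, adjusted p = 0.0644), and Myc (-0.65, adjusted p = 0.0779) did not pass. DESeq2 called 8 of the 29 genes, both of these among them, where it called 18.2% of all genes, and Myc also passed with the length offset and with the acinar covariate.

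**Figure D5:**
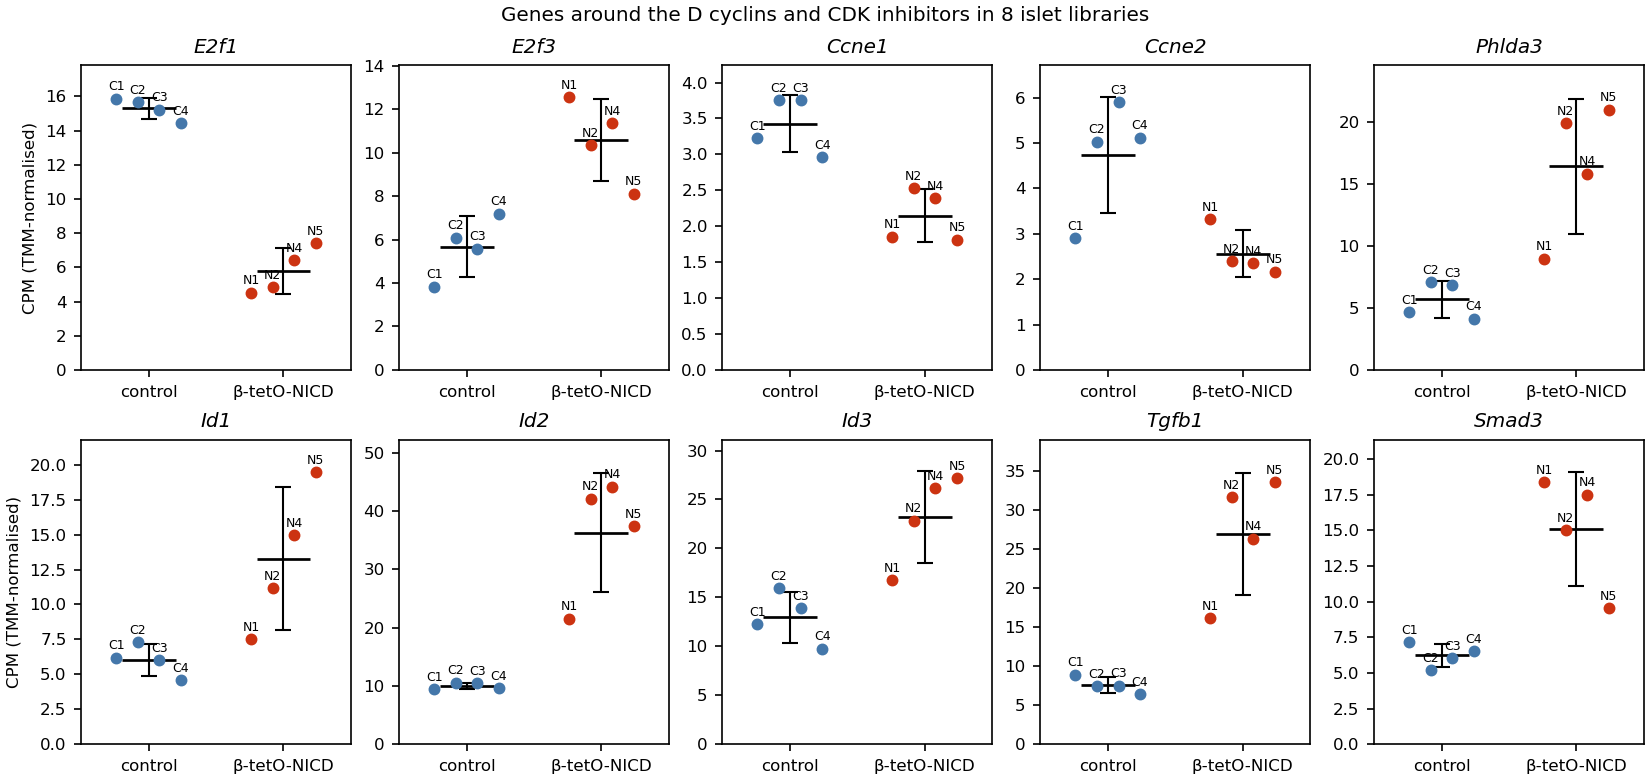
CPM in each library, on linear axes from 0, of 10 genes that act with or upstream of the D cyclins and inhibitors, with means and SD (n = 4). E2f1 is lower in every β-tetO-NICD library than in any control, and Id2 and Tgfb1 are higher in every one.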

How the data were processed

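Islet RNA of 4 control and 4 β-tetO-NICD mice was compared, and the labels give each library its own mouse. Libraries were stranded and poly(A)-selected. The authors used Kallisto to pseudoalign them to GRCm38 transcripts (version and annotation release not given in the sources used here) and deposited whole-number counts per gene symbol, not normalized. A deposited table of the authors' own comparison (log2 fold changes, p values and related statistics) was not used.

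Counts were tested with edgeR 4.0.16 under R 4.3.3 (TMM, glmQLFit and glmQLFTest, no covariate). Alternatives used DESeq2 1.42.0, limma 3.58.1 (voom), other normalizations and filters, a replicate block, covariates, libraries left out, and an offset from a lowess trend (span 0.3) of each library on transcript length. Lengths matched 97.2% of tested genes by symbol in GENCODE M21. The length trend used the longest transcript of any type. Protein-coding lengths were added as an alternative after those results were known, and per-kb levels use them. Fits were tested on simulated data. No pair of libraries in a group agreed within sampling noise.

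Members and lists (G1 kinases and partners, Rb and E2F, turnover, S phase and mitosis, p53, the Cdkn1c domain, Cdkn2a regulators, upstream regulators and cell type markers) were chosen with earlier results of these data known. Named genes were all members, Notch1 and Hes1, list genes past the threshold and those needed to describe a list.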

Additional observations from a re-analysis of the deposited data

Results flagged for a closer look

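In 106 groups of 4 libraries, 1 library stood apart from the others by Dixon's gap test in 6, where chance gives about 5. Cdkn1a in β-tetO-NICD library 1, at 38.3 CPM, lay below the others at 64.7 to 67.4 CPM (gap 0.908 of the range). The acinar marker sum of control 1, at 84867 CPM, lay above 42602 to 44544 CPM (gap 0.954). The duct marker sum of control 4, at 229 CPM, lay below 308 to 323 CPM (gap 0.847). The erythroid marker sum of β-tetO-NICD library 5, at 868 CPM, lay above 72.8 to 124 CPM (gap 0.935). The correlation with transcript length of control 3, at -0.174, lay below 0.418 to 0.497 (gap 0.882). That of β-tetO-NICD library 1, at 0.446, lay above -0.521 to -0.360 (gap 0.833).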

How the results depend on the processing

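The number of members past the threshold was 0 in 13 of the 15 alternatives other than leaving out a single library, 6 without control 3 and transgenic library 1, and 1 with the length offset and without transgenic library 1. Leaving out each library in turn gave 0 to 4 members and 319 to 4954 genes in all, or 2.14% to 33.2% of those tested. The 33.2% was without transgenic library 1. It gave 0 to 3 G1 partners, 1 to 4 Rb and E2F genes, 0 to 3 turnover genes, 0 to 3 S phase genes, 0 to 8 p53 genes, 3 to 4 genes of the Cdkn1c domain, 1 to 8 Cdkn2a regulators and 2 to 13 upstream regulators, with log2 fold changes of -0.074 to 0.21 for Ccnd1 and -0.12 to 0.12 for Cdkn1b. DESeq2 called 2739 genes in all (18.2% of those tested), 2 G1 partners, 1 turnover gene, 3 p53 genes and 8 upstream regulators. The length offset called 1554 genes (10.3%), 1 G1 partner, 1 turnover gene and 2 p53 genes, and put the log2 fold changes of Ccnd2 at 0.044, Cdkn2a at -0.22 and Cdkn2b at -0.013. With protein-coding lengths these were 1586 genes (10.5%), 1 G1 partner, 1 turnover gene, 2 p53 genes, 7 genes of the Cdkn1c domain and 2 Cdkn2a regulators, with Ccnd2 at 0.061 and Cdkn2a at -0.21. Without transgenic library 1 as well, protein-coding lengths gave 2935 genes (19.7%), 5 G1 partners, 1 turnover gene, 3 S phase genes, 6 p53 genes, 7 genes of the Cdkn1c domain and 7 upstream regulators, with Ccnd2 at 0.061. The longest transcripts gave 3108 genes (20.9%), 5 G1 partners, 2 turnover genes, 4 S phase genes, 5 p53 genes and 7 upstream regulators, with Ccnd2 at 0.037. The 5 libraries with at most 1 Eif2s3y count gave 104 genes (0.719%), 1 Rb and E2F gene, 0 p53 genes, 2 genes of the Cdkn1c domain, 0 Cdkn2a regulators and 0 upstream regulators, with Cdkn1b at -0.16 and Cdkn2b at -0.0095. Without control 3 and transgenic library 1, 5817 genes (39.5%), 3 G1 partners, 5 Rb and E2F genes, 3 turnover genes, 1 S phase gene, 9 p53 genes, 9 Cdkn2a regulators and 14 upstream regulators passed, with Ccnd1 at -0.14 and Cdkn1b at -0.018. Of the Rb and E2F genes 1, E2f1, passed without the filter, with the Eif2s3y covariate and with the acinar covariate. Of all genes 4.49%, 4.91% and 9.58% passed in these fits. The Eif2s3y covariate left 1 Cdkn2a regulator and put Ccnd1 at -0.061. The acinar covariate gave 1 S phase gene, 2 p53 genes and 5 upstream regulators, with Ccnd1 at -0.023 and Cdkn1b at -0.052, and limma-voom put Cdkn1b at -0.018. The causes were not tested. The fit of 5 libraries, those without both control 3 and transgenic library 1, those with the length offset and without transgenic library 1, and the protein-coding lengths were chosen after seeing the data.

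Samples with the same replicate number correlated at 0.276 (number 1) and -0.0901 (number 2), and only these 2 numbers are settled in both groups, so the samples share a number only. With the replicate block 970 genes (6.43%), 0 members, 1 Rb and E2F gene and 1 Cdkn2a regulator passed. Cdkn2a could not be tested with 10 counts required in every library, in the fit of 5 libraries or in 4 fits that left out 1 library. Its counts lie near the floor. The share of higher calls was 62% and 70.7% with upper-quartile scaling. Having 4 libraries per group limits the precision of every value.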
